A study of Mus musculus with 4 samples.

Results

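H3K27ac at 10 genes of Toll-like receptor recognition was described in liver sinusoidal endothelial cells (LSECs) of the mouse. The genes were the receptors *Tlr1*, *Tlr2*, *Tlr3*, *Tlr4*, *Tlr5*, *Tlr6*, and *Tlr9*, the lipopolysaccharide co-receptors *Cd14* and *Ly96*, and the adapter *Myd88*. They were chosen by name among 21887 protein-coding genes, and all 10 were found in the annotation. For each gene, every peak in the gene body or within 10 kb on either side was taken and was called a gene-end peak when it lay within 1 kb of either end of the gene, and distal otherwise. Peaks of the 2 libraries that overlapped by at least 1 bp made a shared region.

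The series was made to find regulatory elements of LSECs, in the paper those of *Col4a1* and *Col4a2*, by ChIP-Seq of H3K27ac, the acetylation of lysine 27 of histone H3 that marks promoters and enhancers in use. The 2 immunoprecipitated libraries, replicates 2 and 3 after the numbers in their names, each have an input library that was not analysed here. Their records give neither genotype, strain, age, nor treatment of the mice, and the paper's methods describe LSECs pulled down with anti-CD146 beads, plated on collagen, and kept in culture for some hours. LSECs were taken in the study from mice carrying dCas9-KRAB with *Cdh5* CreERT2, an inducible Cre driven by the VE-cadherin promoter. Others came from *Col4a1* fl/wt mice with or without that Cre. Some mice of the study were given tamoxifen, and some were given olive oil or carbon tetrachloride. In some experiments the cytokine TNF-α was added to the cultured cells. The methods do not say which mice or treatments gave these libraries. The paper describes tagmentation of the chromatin, whereas the records describe sonication and ligation of adapters. The names of the 2 libraries differ only in their number and give no condition. Nothing states whether they came from separate animals or from mice treated alike. No comparison between conditions was made and no test was run.

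Toll-like receptors are membrane proteins that bind molecules of microbes and signal through cytoplasmic adapters to NF-κB and interferon regulatory factors. Those of the cell surface bind bacterial lipoproteins, lipopolysaccharide, and flagellin, and those of the endosome bind nucleic acids. LSECs line the hepatic sinusoids, where portal blood carries microbial products from the gut, and they take part in clearing and sensing them.

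The replicate 2 list held 26975 peaks and the replicate 3 list 64498, and the read depth behind them is unknown. A replicate 2 peak overlapped 37.7% of all replicate 3 peaks. Fold enrichment, a ratio over background taken from the deposited lists, was ranked only within a list, as a percentile of that list's peaks. Markers of cell types were listed with earlier results of these data known, so their counts are a description and not a test of the cell type. Of 17 LSEC markers, 13 had a shared region at a gene end, all 17 had a replicate 3 peak there, and 16 had a shared distal region. The shares over all protein-coding genes were 44.1%, 53.9%, and 39.3%. Macrophages also carry Toll-like receptors. Of 16 markers of Kupffer cells and macrophages, 2 had a shared gene-end region (*Spi1* and *Cd68*), while *Clec4f*, *Vsig4*, *Adgre1*, *Timd4*, *Marco*, and the other 9 had no gene-end peak in either library, and 4 of the 16 had a shared distal region. What part such cells have in the members' peaks was not tested. Of 8 markers of neutrophils and monocytes, *S100a8* alone had a shared gene-end region, and 2 had a shared distal region. The counts with a shared gene-end region were 1 of 12 for hepatocytes (*Trf*), 0 of 10 for hepatic stellate cells, 0 of 6 for cholangiocytes, and 1 of 8 for lymphocytes (*Cd79a*). Counted from replicate 3 alone, gene-end peaks were found at 3, 3, 1, and 1 of these markers, in the same order. Shared distal regions were found at 4, 2, 1, and 3 of them.

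The promoter sequences that the peaks bear on are shown for 4 members. The *Tlr2* and *Tlr3* windows carried a peak of both libraries, the *Myd88* window carried a peak of replicate 3 only, and the *Tlr9* window carried none. Each window runs 5′ to 3′ from 250 bases before to 50 bases after the annotated start, in RefSeq's GRCm38.p6. Capitals mark matches on either strand to any of 6 motifs, those of AP-1, ETS, IRF, and GATA factors, the TATA box, and the κB consensus, where matches may overlap.
*Tlr2* (chr3:83841559-83841858, minus strand): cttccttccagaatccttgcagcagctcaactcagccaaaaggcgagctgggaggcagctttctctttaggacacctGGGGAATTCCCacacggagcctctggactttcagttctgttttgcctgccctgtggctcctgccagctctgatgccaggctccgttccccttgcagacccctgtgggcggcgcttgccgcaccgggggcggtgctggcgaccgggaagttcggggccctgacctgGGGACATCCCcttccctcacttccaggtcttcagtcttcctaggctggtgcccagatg
*Tlr3* (chr8:45410331-45410630, minus strand): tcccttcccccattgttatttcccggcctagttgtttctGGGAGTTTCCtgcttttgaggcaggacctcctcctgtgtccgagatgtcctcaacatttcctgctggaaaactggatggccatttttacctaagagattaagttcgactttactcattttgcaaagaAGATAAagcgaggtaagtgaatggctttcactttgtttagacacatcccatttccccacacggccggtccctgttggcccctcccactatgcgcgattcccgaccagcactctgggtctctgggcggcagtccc
*Myd88* (chr9:119339969-119340268, minus strand): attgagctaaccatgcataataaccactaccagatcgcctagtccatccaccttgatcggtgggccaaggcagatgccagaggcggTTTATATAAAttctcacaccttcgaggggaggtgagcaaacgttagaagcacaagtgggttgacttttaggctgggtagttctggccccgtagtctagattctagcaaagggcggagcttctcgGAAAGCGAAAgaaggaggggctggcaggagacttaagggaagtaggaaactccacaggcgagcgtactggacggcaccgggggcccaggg
*Tlr9* (chr9:106222348-106222647, plus strand): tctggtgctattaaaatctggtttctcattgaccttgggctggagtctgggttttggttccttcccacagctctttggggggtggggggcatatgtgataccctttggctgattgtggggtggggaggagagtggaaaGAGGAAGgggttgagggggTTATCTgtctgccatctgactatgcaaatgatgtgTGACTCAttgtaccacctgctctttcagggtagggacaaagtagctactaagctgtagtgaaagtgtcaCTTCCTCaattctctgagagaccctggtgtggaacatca

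Of the 10 genes, 6 had a shared H3K27ac region at a gene end, which were *Tlr2*, *Tlr3*, *Tlr4*, *Cd14*, *Ly96*, and *Myd88*. Over all protein-coding genes the share was 44.1%. A further 3, *Tlr1*, *Tlr6*, and *Tlr9*, had a gene-end peak in replicate 3 only, a state found in 9.81% of all genes, and *Tlr5* had no gene-end peak in either library. Counted from replicate 3 alone, 9 of 10 had a gene-end peak, against 53.9% of all genes. Counted from replicate 2 alone, 6 of 10 had one, against 44.1%. Of the 7 receptors among the 10 genes, 3 had a shared gene-end region, and the other 3 genes with one were *Cd14*, *Ly96*, and *Myd88*. With so few members, these shares describe the 10 genes only. The calls of *Tlr3*, *Tlr4*, and *Cd14* were lost when each peak had to cover at least 50% of the other, and those of *Tlr2* and *Tlr3* were lost when the same number of strongest peaks was kept in each list.

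The regions at the 10 genes numbered 28, of which 13 were shared and 15 had a replicate 3 peak only. No region rested on replicate 2 alone, and all 14 replicate 2 peaks lay within the 13 shared regions. The shared part was 46.4% of the member regions and 37.4% of the 64629 regions of the whole genome. In the replicate 3 list the shared regions lay between the 44.9th and the 98.7th percentile, with a median of 76.3 against 81.0 for all shared regions. The regions with replicate 3 alone lay between the 1.44th and the 71.4th percentile, with a median of 22.2 against 31.9 for all such regions. The 2 ranges overlapped from the 44.9th to the 71.4th percentile.

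**Figure D1:**
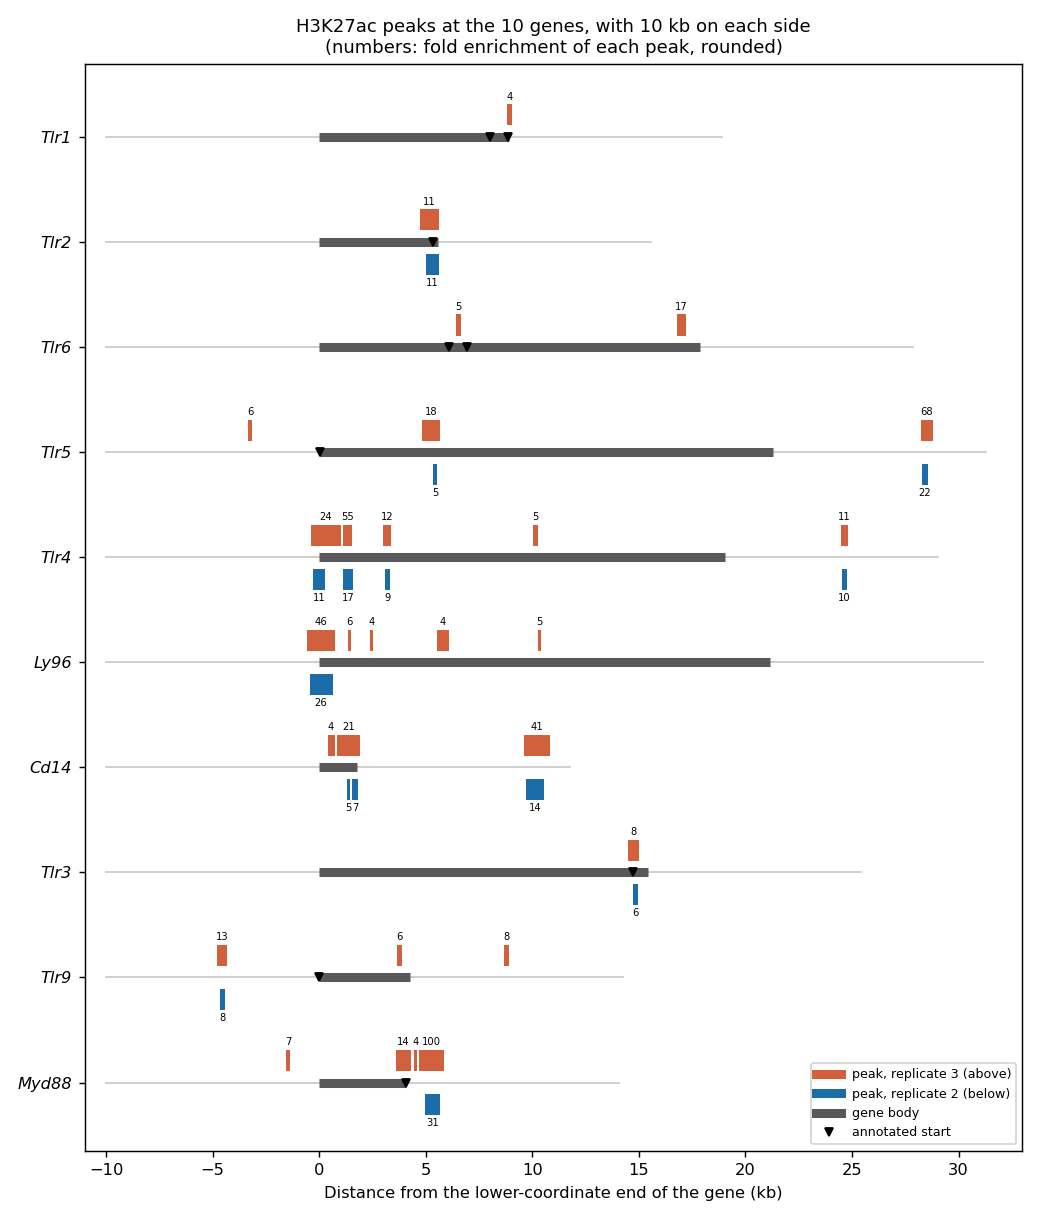
Peaks of both libraries at each gene, plotted as distance in kb from the end of the gene with the lower coordinate; replicate 3 is drawn above and replicate 2 below the gene body, the thin line extends 10 kb on each side, triangles mark annotated starts where RefSeq gave them, and numbers are fold enrichments. *Tlr4* carries 4 shared regions, *Tlr1* and *Tlr6* carry none, and the tallest fold enrichment, 100.32, lies beside *Myd88*.

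*Tlr4*, the lipopolysaccharide receptor, held the most shared regions of the 10 genes. Its gene-end region lay at chr4:66827143-66828574 and covered the end of the gene with the lower coordinate. There the fold enrichment was 10.84 in replicate 2 and 23.6 in replicate 3, at the 55.4th and 78.4th percentiles. A narrow region of 467 bp inside the gene, at chr4:66828659-66829125, was higher in both libraries, with 16.94 in replicate 2 and 55.36 in replicate 3. It lay 1108 bp from the gene end, just past the 1 kb limit, and so counted as distal. Its percentiles were 76.6 and 93.0, so in each list it ranked above the region at the end itself. Another shared region within the gene had 9.49 and 11.8, and the last, 5436 bp beyond the other end, had 10.17 and 11.07. A single peak of replicate 3 only lay deeper in the body, with 5.02. The nearest end of another protein-coding gene, that of *Astn2*, lay 422606 bp from the gene-end region.

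*Ly96* encodes MD-2, the protein that binds lipopolysaccharide on the outer face of Tlr4. Its gene-end region, chr1:16687869-16689182, spanned the lower-coordinate end and had fold enrichments of 26.43 (replicate 2) and 45.73 (replicate 3). These values were at the 91.8th and 90.2nd percentiles, so both lists placed it high and at a similar rank. The body of *Ly96* held 4 further regions, all of replicate 3 only and all low, from 3.54 to 5.86. No distal region at *Ly96* was shared.

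*Cd14* encodes the surface protein that hands lipopolysaccharide to Tlr4 and MD-2. In replicate 3 a single peak of 1102 bp, at chr18:36725899-36727000, covered the higher-coordinate end of this short gene with a fold enrichment of 21.27 at the 76.3rd percentile. In replicate 2 it was matched by a pair of small peaks, of which the higher had 7.46 at the 32.3rd percentile. A weak peak of replicate 3 only, with 4.22, lay within the gene. The distal region counted for *Cd14*, with 14.23 in replicate 2 and 41.01 in replicate 3, covered an end of the neighbouring gene *Tmco6*, and distance alone does not assign it to either gene.

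*Tlr2*, which binds bacterial lipoproteins, had a single region, chr3:83840993-83841889, and nothing distal. The fold enrichment was 10.84 in replicate 2 and 10.73 in replicate 3, at the 55.4th and 56.9th percentiles of lists that differ in length. Among protein-coding genes with a gene-end peak, *Tlr2* stood at the 27.2nd percentile in replicate 2 and the 13.6th in replicate 3. The region covered the annotated start, and the nearest end of another protein-coding gene lay 56316 bp away.

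Tlr1 and Tlr6 each pair with Tlr2 on the cell surface to widen the range of lipoproteins it binds, and their genes lie next to each other, 19491 bp apart, on chromosome 5. Neither gene had a shared region. *Tlr1* had a single replicate 3 peak of 216 bp across an annotated start, with a fold enrichment of 3.82 at the 2.96th percentile, near the bottom of the list. At *Tlr6* the call at the gene end was a replicate 3 peak, chr5:64969886-64970306, with 17.26 at the 71.4th percentile. This peak covered the annotated start of *Fam114a1*, which overlaps the higher-coordinate end of *Tlr6*, and lay 9838 bp from the nearest annotated start of *Tlr6*. The replicate 3 peak closest to a *Tlr6* start, at 297 bp, had a fold enrichment of 5.21 at the 19.8th percentile. It lay between the 2 annotated starts, which are 882 bp apart, and was counted as distal because the annotated body extends beyond them.

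*Tlr5*, the flagellin receptor, was the member without any peak within 1 kb of its ends. Its regions were distal. A region beyond the 3′ end, chr1:182982996-182983551, lay 6952 bp from the gene and had the highest fold enrichment of all distal member regions. It had 21.69 in replicate 2 and 67.86 in replicate 3, at the 85.9th and 95.5th percentiles. The nearest end of another protein-coding gene, that of *Susd4*, lay 86400 bp away. A second shared region lay 4781 bp downstream of the start, within the body. It had 18.0 in replicate 3, at the 72.5th percentile, and 5.42 in replicate 2, at the 7.67th. These percentiles lay far apart. A peak of replicate 3 only, 3170 bp before the start, had 5.71.

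*Tlr3*, the endosomal receptor of double-stranded RNA, had a single region, chr8:45410166-45410682, at its annotated start, which the replicate 3 peak covered, while the replicate 2 peak began just upstream of it. The fold enrichment was 5.62 in replicate 2 and 8.03 in replicate 3, at the 11.2th and 44.9th percentiles. This was the weakest shared region at a gene end among the members in both libraries.

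*Tlr9*, the endosomal receptor of unmethylated CpG DNA, had no peak over its start. Its gene-end call was a peak of replicate 3 only, 405 bp from the 3′ end, with 6.19 at the 30.8th percentile. Its shared region was distal, chr9:106217813-106218293, 4305 bp upstream of the start, with 8.13 in replicate 2 and 13.14 in replicate 3. That region lay closer to an end of *Twf2*, at 2426 bp, than to *Tlr9*. Another peak of replicate 3 only, with 7.67, lay 1935 bp from an end of *Alas1*.

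*Myd88* encodes the adapter that all members of the receptor family except Tlr3 use. The strongest of the 28 regions lay beside it, at chr9:119340608-119341770, with fold enrichments of 31.12 (replicate 2) and 100.32 (replicate 3), at the 95.1st and 98.7th percentiles. The region began 590 bp upstream of the *Myd88* start and covered the start of *Acaa1a*, a gene of fatty acid oxidation in the peroxisome that runs the other way. The 2 starts are 1276 bp apart, head to head. Over the *Myd88* start itself lay a separate peak, chr9:119339528-119340244, in replicate 3 only, with 14.33 at the 66.4th percentile. The shared call of *Myd88* therefore rests on a region that is also a gene-end region of *Acaa1a*, and it was lost when peaks within 1 kb of an end of another protein-coding gene were left out, which left 5 of the 10 genes.

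**Figure D2:**
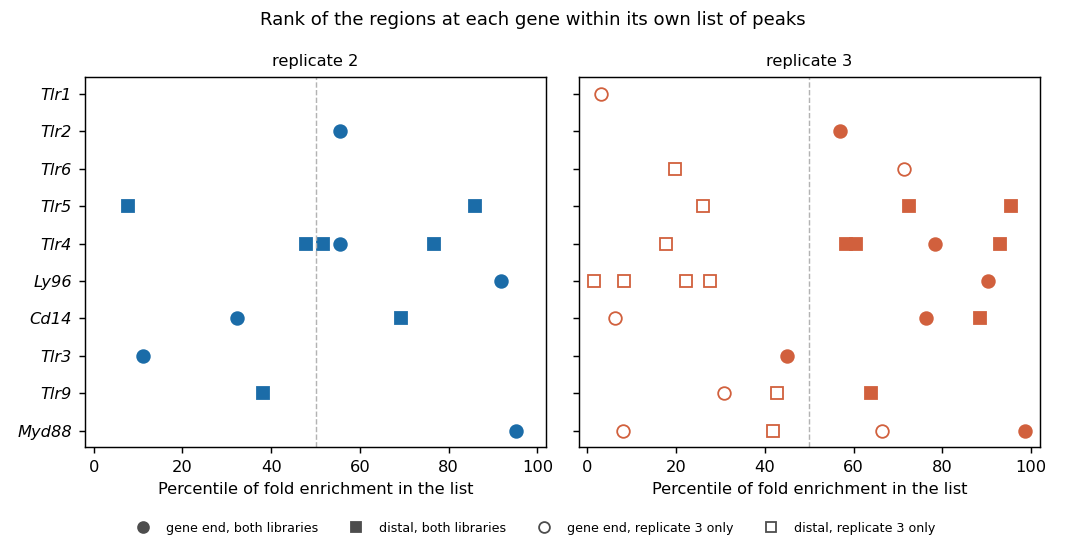
Percentile of fold enrichment of each member region within the replicate 2 list (left) and the replicate 3 list (right), with 1 row per gene, circles for gene-end and squares for distal regions, filled where both libraries had a peak and open where replicate 3 alone had one; the dashed line is the 50th percentile. Filled symbols of replicate 3 sit at 44.9 or higher, and most open symbols sit below the line.

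Of the 7 shared distal regions, 3 lay at *Tlr4*, 2 at *Tlr5*, and 1 each at *Cd14* and *Tlr9*, so 4 of the 10 genes had at least 1. Over all protein-coding genes, 39.3% had a shared distal region in the same window. Of the 7, 3 lay within the gene body and 4 outside it. Their fold enrichments in replicate 3 ran from 11.07 to 67.86, at the 58.3rd to the 95.5th percentile. *Tlr1*, *Tlr2*, *Tlr3*, *Tlr6*, *Ly96*, and *Myd88* had none. Over all genes the mean was 0.804 shared distal regions per gene, against 7 regions over the 10 members, and gene bodies had a median length of 17169 bp, against 12166 bp for the members. Replicate 3 alone gave 16 distal regions at 7 genes.

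Where the members had a gene-end peak, it was mostly low for a gene end. Ranked among the 11792 protein-coding genes with a gene-end peak in replicate 3, 7 of the 9 members with one stood below the middle. *Tlr1* stood at the 0.293rd percentile of these genes, *Tlr9* at the 5.16th, *Tlr3* at the 8.76th, *Tlr2* at the 13.6th, *Tlr6* at the 22.9th, *Cd14* at the 28.5th, and *Tlr4* at the 31.3rd. *Ly96* at the 57.8th and *Myd88* at the 92.5th stood above it. The rank of *Myd88* is that of the region over the *Acaa1a* start, and the replicate 3 peak over its own start, with 14.33, would stand at the 19.1st. That of *Tlr6* is likewise the peak over the *Fam114a1* start. The median fold enrichment at gene ends was 17.3 for the 9 members and 9.38 for the 6 receptors among them, against 38.7 for all genes with a gene-end peak. In replicate 2, *Tlr3* was at the 3.02nd percentile of 9651 genes, *Cd14* at the 11.4th, *Tlr2* and *Tlr4* both at the 27.2nd, *Ly96* at the 79.1st, and *Myd88* at the 86.8th. Both lists thus ranked *Tlr3* lowest and *Myd88* highest of the 6 genes with a shared gene-end region, *Myd88* by the region it has in common with *Acaa1a*. No test was made of this difference, since the members were a chosen list.

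The members' promoter windows had a lower ratio of observed to expected CpG dinucleotides than most windows with a peak of both libraries. They were mostly near the middle of all windows. RefSeq gave 9 windows for 7 members, which were *Tlr1* and *Tlr6* with 2 each and *Tlr2*, *Tlr3*, *Tlr5*, *Tlr9*, and *Myd88* with 1 each, and none was used for *Tlr4*, *Ly96*, and *Cd14*. The CpG observed/expected ratio compares the CpG count with that given by the C and G content. Over 21263 windows of protein-coding genes, its median was 0.567 in all, 0.824 for the 8649 windows with a peak of both libraries, 0.645 for the 2043 with a peak of replicate 3 only, and 0.240 for the 10569 without a peak. The 9 member windows had a median of 0.406. Of these, 2 carried a peak of both libraries, 2 a peak of replicate 3 only, and 5 none. The 5 without a peak had 0.514 (*Tlr1*), 0.406 and 0.576 (*Tlr6*), 0.327 (*Tlr5*), and 0.00 (*Tlr9*), against the median of 0.240 for that class. Among all windows, 8 of them ranked between the 27.4th and the 53.4th percentile, 2 of these above the middle, and *Tlr9* at the 2.32nd. All 9 lay under 0.689, the lower quartile of windows with a peak of both libraries. *Tlr2*, at 0.384, and *Tlr3*, at 0.524, carried a peak of both libraries all the same. At an annotated start alone, 3 of the 7 members with a start had a shared region within 1 kb, against 45.9% of 17492 genes. The *Myd88* window had the highest ratio, 0.613, and the *Tlr9* window had no CpG at all. These windows are shown as sequences above, and the pattern over all genes was a description across windows that are not independent.

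**Figure D3:**
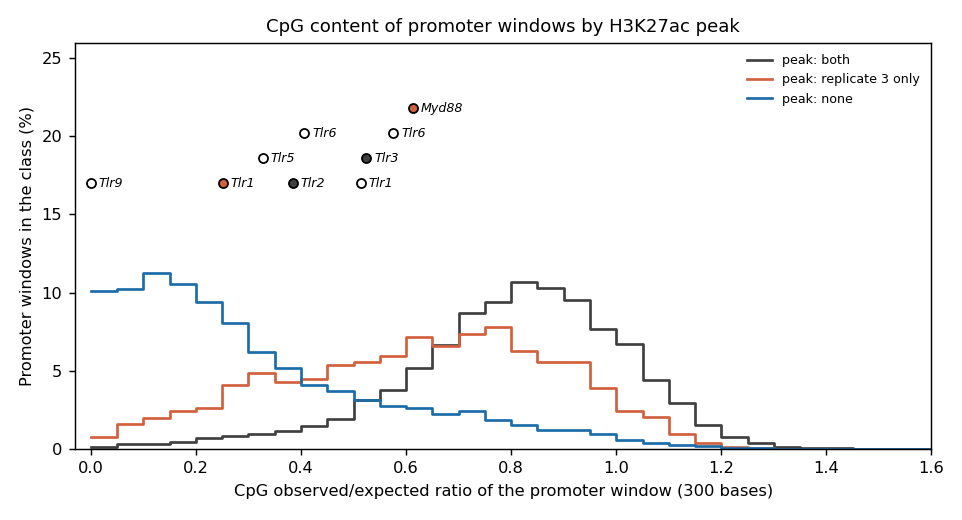
Distribution of the CpG observed/expected ratio of promoter windows (x axis) as the percentage of windows in each class (y axis), for windows with a peak of both libraries, of replicate 3 only, or of neither. Circles give the member windows at their ratio, black for a peak of both libraries, orange for replicate 3 only, and white for none, and their height has no meaning; all lie left of the bulk of the windows with a peak of both libraries.

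Motif matches on either strand differed between the member windows. The κB consensus, the site bound by NF-κB, matched in *Tlr2*, where a pair of overlapping matches began 173 and 172 bases before the start and another overlapped the start, and in *Tlr3*, where it began 211 bases before it. It was present in 9.25% of all windows. The IRF motif, searched as GAAA repeated after any 2 bases, was found in *Myd88*, 40 bases before the start, and in 1 *Tlr6* window, against 3.35% of all windows. The ETS motif, searched with the letters GAGGAAG, was found in 2 places of the *Tlr9* window and in 1 *Tlr1* window, and 13.6% of all windows held it at least once. The AP-1 motif was searched as TGANTCA. It matched in *Tlr9* alone of the member windows, against 6.99% of all windows. The motif of GATA factors was found in *Tlr3* and *Tlr9*, against 9.65% of all windows, when it was spelled AGATAA. The box near the start of some genes, TATAAA, was found in *Myd88* and in 1 *Tlr6* window, against 12.6% of all windows. The *Tlr5* window and 1 *Tlr1* window held none of the 6 motifs. A match describes letters only and does not show that a factor binds.

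The 5 other Toll-like receptor genes of the mouse had no shared gene-end region. *Tlr7*, an endosomal receptor of single-stranded RNA, had a gene-end peak in replicate 3 only, with a fold enrichment of 8.14, and a shared region in its body with 5.42 in replicate 2 and 19.86 in replicate 3. *Tlr8* had a single distal peak of replicate 3, with 5.61, and *Tlr11* had no peak in its window. *Tlr12* and *Tlr13* each had a shared distal region, with 55.17 and 24.1 in replicate 3, and that of *Tlr12* covered an end of *Zscan20*. Of all 12 receptor genes of the mouse, *Tlr2*, *Tlr3*, and *Tlr4* were thus the 3 with a shared gene-end region. Over all protein-coding genes the share with one was 44.1%.

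Genes that act with or downstream of the receptors were listed by role. Of 57 pathway genes other than receptors, 37 (64.9%) had a shared gene-end region, 6 had a replicate 3 peak only, and 14 had none, against the 44.1% of all genes with a shared one. The 37 became 23 when each peak had to cover at least 50% of the other. Without the target genes, 31 of 42 (73.8%) had one. The 36 of these 42 with a gene-end peak in replicate 3 had a median fold enrichment of 40.3 there. That was close to the 38.7 of all genes with such a peak. The difference from the members was not tested.

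The counts by role stand beside a share of 44.1% over all protein-coding genes. Median gene-end fold enrichments in replicate 3 were 44.4 for kinases and their partners and 56.3 for ubiquitin enzymes. They were 69.2 for inhibitors and 34.2 for transcription factors, against 38.7 for all genes with a gene-end peak. Of 13 kinases and partners of kinases, 12 had a shared gene-end region. *Irak4*, the kinase that Myd88 binds first, was highest with 36.51 in replicate 2 and 102.9 in replicate 3, and *Ikbke* was the exception with none. All 4 ubiquitin enzymes had one, led by *Ube2n* with 98.34 in replicate 3. Of 6 inhibitors, 5 had one, led by *Cyld*, which removes ubiquitin chains from the pathway's proteins, with 48.8 in replicate 2 and 136.02 in replicate 3. *Sigirr*, a receptor-like inhibitor, had none. Among 8 transcription factors, 5 had one, led by *Relb* with 74.5 in replicate 3, while *Irf5* and *Irf7* had a replicate 3 peak only and *Nfkb2* had none.

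The other adapters were split. *Ticam1*, through which Tlr3 signals, had 32.34 in replicate 2 and 113.0 in replicate 3, and *Tirap*, which bridges Tlr2 and Tlr4 to Myd88, had 10.14 and 28.32. *Ticam2* and *Sarm1* had a replicate 3 peak only, with 4.23 and 11.2. Among 7 accessory and trafficking genes, *Hsp90b1*, a chaperone of the receptors, was highest with 123.09 in replicate 3. *Unc93b1*, which carries the nucleic acid receptors to the endosome, had a replicate 3 peak only, with 13.61. *Cd36*, *Cd180*, and *Ly86* had no gene-end peak, though *Cd36* had 4 shared distal regions.

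Of 15 target genes of the pathway, 6 had a shared gene-end region, a share below the 44.1% of all protein-coding genes. The chemokine gene *Cxcl10* was highest in replicate 3, with 62.52 and with 14.81 in replicate 2, where *Cxcl1* was highest with 19.53, and the cytokine genes *Il6*, *Il1b*, and *Il12b* were among 8 with no gene-end peak in either library. *Tnf* had a replicate 3 peak only, with 4.03, close to the lowest of all gene ends. Of 12 pattern sensors outside the family, 7 (58.3%) had a shared gene-end region, against the same 44.1%. The 7 became 2 when each peak had to cover at least 50% of the other. *Nod1*, a cytosolic sensor of bacterial cell wall fragments, was highest in replicate 3, with 29.2 and with 9.49 in replicate 2, where *Ddx58*, a cytosolic sensor of viral RNA, was highest with 15.26. The 9 sensors with a gene-end peak in replicate 3 had a median of 15.7 there, near the 17.3 of the 9 members with one. *Nlrc4*, *Clec7a*, and *Clec4e* had no gene-end peak.

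**Figure D4:**
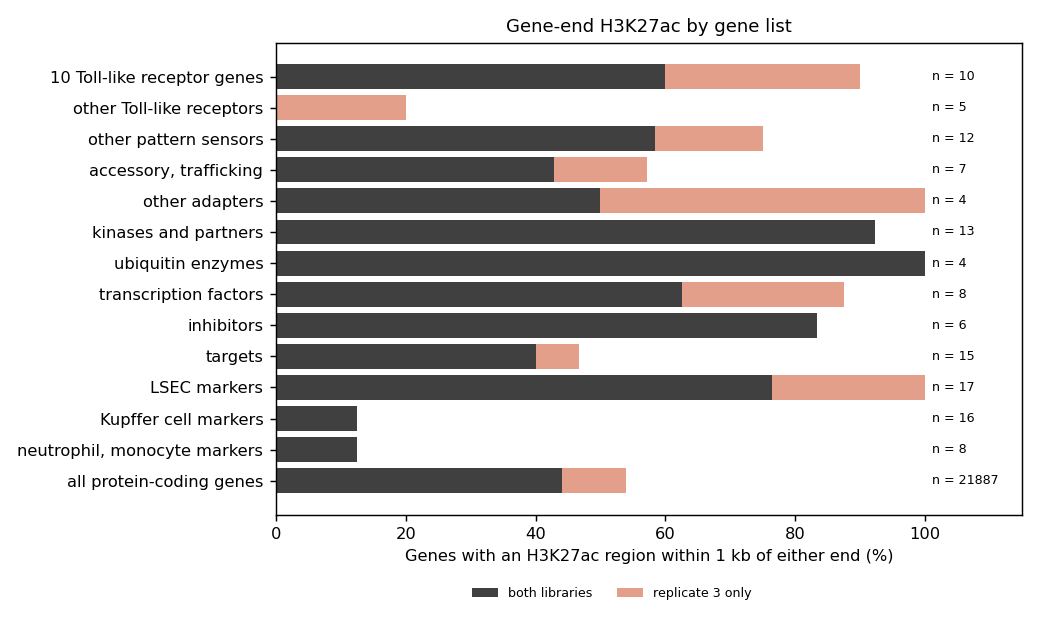
Percentage of genes in each list with an H3K27ac region within 1 kb of either end, dark where both libraries had a peak and orange where replicate 3 alone had one, with the number of genes at the right. Kinases and their partners stand at 92.3% and Kupffer cell markers at 12.5%, while 6 of the 10 members and all 4 ubiquitin enzymes have a shared region.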

How the data were processed

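The 2 immunoprecipitated libraries were analysed, and the 2 inputs were not. The authors deposited 1 list of peaks per library, in which the fold enrichment is a ratio, the next columns are the −log10 of the p-value and q-value, and the score is 10 times the −log10 q cut to a whole number. The submitters' processing notes name cutadapt 0.4.4, BWA 0.7.17, Picard 1.67, MACS2 2.0.10, bedtools 2.27.1, and build mm10, which is GRCm38. Whether inputs entered the peak calls is not given in the sources used here. Read counts are not given, so depth is unknown, and a deeper library yields more peaks.

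Gene bodies came from the RefSeq table of GRCm38.p6, which gives no strand, so either end was used. Positions are counted from 1. Starts and strand came from the RefSeq promoter windows (300 bases). Overlapping peaks of both lists were merged into regions, and a region was shared when it held peaks of both. All 74 pathway genes and 77 markers were matched, 2 by a synonym. A gene named was a member, another Toll-like receptor gene, the highest and up to 3 unmarked genes of a role, a marker of another cell type with a shared region, or a neighbour within 1 kb of a member peak. Others (*Tirap*, *Ticam2*, *Sarm1*, *Unc93b1*, *Irf5*, *Irf7*, *Tnf*, *Cxcl1*, *Ddx58*, and distant neighbours) were named after their values were seen, and Kupffer markers without a peak likewise. The members and lists were chosen with earlier results of these data known. No test was run. The merging was tested on simulated data. Python 3.11.15, numpy 2.4.6, and pandas 2.3.3 were used.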

Additional observations from a re-analysis of the deposited data

How the results depend on the processing

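No paired analysis was possible because the labels name no conditions to compare, and no test was run. The 6 members with a shared gene-end region became 3 with a reciprocal overlap of 50%, and with a single library numbered 6 to 9. When starts alone counted, *Tlr2*, *Tlr3*, and *Myd88* kept a shared region, 3 of the 7 members with an annotated start. *Tlr4*, *Ly96*, and *Cd14* had no annotated start and could not be counted in that setting. The 7 shared distal regions became 24 with 50 kb on each side and ranged from 7 (without replicate 3) to 16 (without replicate 2), and the 4 genes holding them became 8 and ranged from 4 to 7. With a reciprocal overlap of 50%, the 37 pathway genes became 23 and the 7 sensors 2. The count of other Toll-like receptor genes ranged from 0 to 1, and that of pathway genes from 37 to 43 and sensors from 7 to 9. The median percentile of the 6 strongest gene-end peaks in replicate 3, 77.3, was 76.6 by −log10 p and 75.7 once peaks above a q-value of 1e-05 were dropped. A reciprocal overlap removes shared regions by construction. A wider window, or no need for a peak in both libraries, adds regions in the same way. What lies behind any other change was not tested. Unknown depth limits what a missing replicate 2 peak can show.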
